A study of Caenorhabditis elegans with 12 samples.

Results

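The fatty acid elongase genes of Caenorhabditis elegans, elo-1 to elo-9, were followed in whole adults of 2 genotypes at 2 ages. The members were taken by gene symbol, and all 9 matched 1 gene identifier each among the 46778 genes of the count files. The wild type was strain N2. The mutant strain, CF1041, carried daf-2(e1370), a missense allele that lowers the activity of the insulin and insulin-like growth factor receptor. Both genotypes fed on OP50 bacteria and received 50 µM FUdR, which blocks DNA synthesis and so the production of progeny, from the last larval stage or young adulthood onwards. Animals were frozen at day 1 or day 9 of adulthood, with 3 biological repeats per group, which made 12 libraries. The design sets day 9 against day 1 within a genotype, and the genotypes against each other within a day. Because every group received FUdR, the changes with age are those of adults under that drug, and day 1 animals had had it for less time.

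Elongases are membrane enzymes of the endoplasmic reticulum that lengthen acyl chains with malonyl-CoA. They catalyse the condensation that opens each elongation cycle, and a reductase, a dehydratase and a second reductase, shared by all chains, complete it. In the worm, ELO-1 acts on polyunsaturated precursors of arachidonic and eicosapentaenoic acid, ELO-2 lengthens palmitate, and ELO-5 and ELO-6 make the monomethyl branched-chain fatty acids that the animal needs for growth and for its sphingolipids. The substrates of the other members are less well defined, and no role is given for them here.

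Of the 9 genes, 6 lie on chromosome IV of the WBcel235 assembly. The genes elo-1 (IV, 9526366 to 9528336, plus strand) and elo-7 (IV, 9529947 to 9531400, plus strand) are neighbours in the same orientation, separated by 1610 bp with no protein-coding gene between them. The genes elo-5 (IV, 5374616 to 5377117) and elo-6 (IV, 5386629 to 5388559) both lie on the minus strand, 9511 bp apart, with 3 protein-coding genes between them. The remaining members of this chromosome are elo-3 (IV, 7237718 to 7240488) and elo-2 (IV, 17466062 to 17467408). Chromosome III holds elo-4 (9332269 to 9334274) and elo-8 (11230377 to 11232069), and chromosome II holds elo-9 (14959526 to 14964108). The predicted proteins are alike in length, from 274 residues for ELO-2, ELO-5 and ELO-6 to 320 for ELO-3.

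Total counts were 20322128 to 47447136 per library, of which 9826 to 27637 fell on the 9 elongase genes. All 9 passed the filter on low counts, as did 15523 of all genes. Of the 9, elo-7 passed only through its day 9 libraries. Its 0 to 12 reads per library at day 1 were too few at these depths. Levels are given as CPM, counts scaled to a common library size after TMM scaling (a correction for differences in library composition), and comparisons between genes as RPKM, which divides CPM by exon length in kb. Changes are log2 values ± SE from edgeR's quasi-likelihood test, and a gene was called at a Benjamini-Hochberg adjusted p under 0.05 over the 15523 genes. Markers of intestine, hypodermis, muscle, pharynx, nervous system and germ line were all detected in each group. In such samples, fewer cells of a type and less RNA per cell cannot be told apart.

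A set of 5 genes made up most of the elongase mRNA. Per length, elo-1 and elo-6 led at day 1 in both genotypes, with 285 ± 25.8 and 248 ± 107 RPKM in wild type and 323 ± 22.5 and 348 ± 13.8 RPKM in daf-2 (SD, n = 3 here and below). The libraries of these 2 genes overlapped in both genotypes. They were followed by elo-5 (104 ± 32.6 RPKM in wild type, 177 ± 16.0 in daf-2), elo-2 (95.4 ± 44.4 and 114 ± 7.54) and elo-3 (71.6 ± 7.44 and 70.4 ± 7.95). In wild type at day 1 the ranges of elo-6, elo-5, elo-2 and elo-3 each overlapped the next, whereas in daf-2 elo-5, elo-2 and elo-3 were separate. The other 4 genes were far lower: elo-9 had 7.78 ± 1.43 RPKM in wild type at day 1, elo-4 1.33 ± 0.224, elo-8 0.617 ± 0.268 and elo-7 0.165 ± 0.181.

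**Figure D1:**
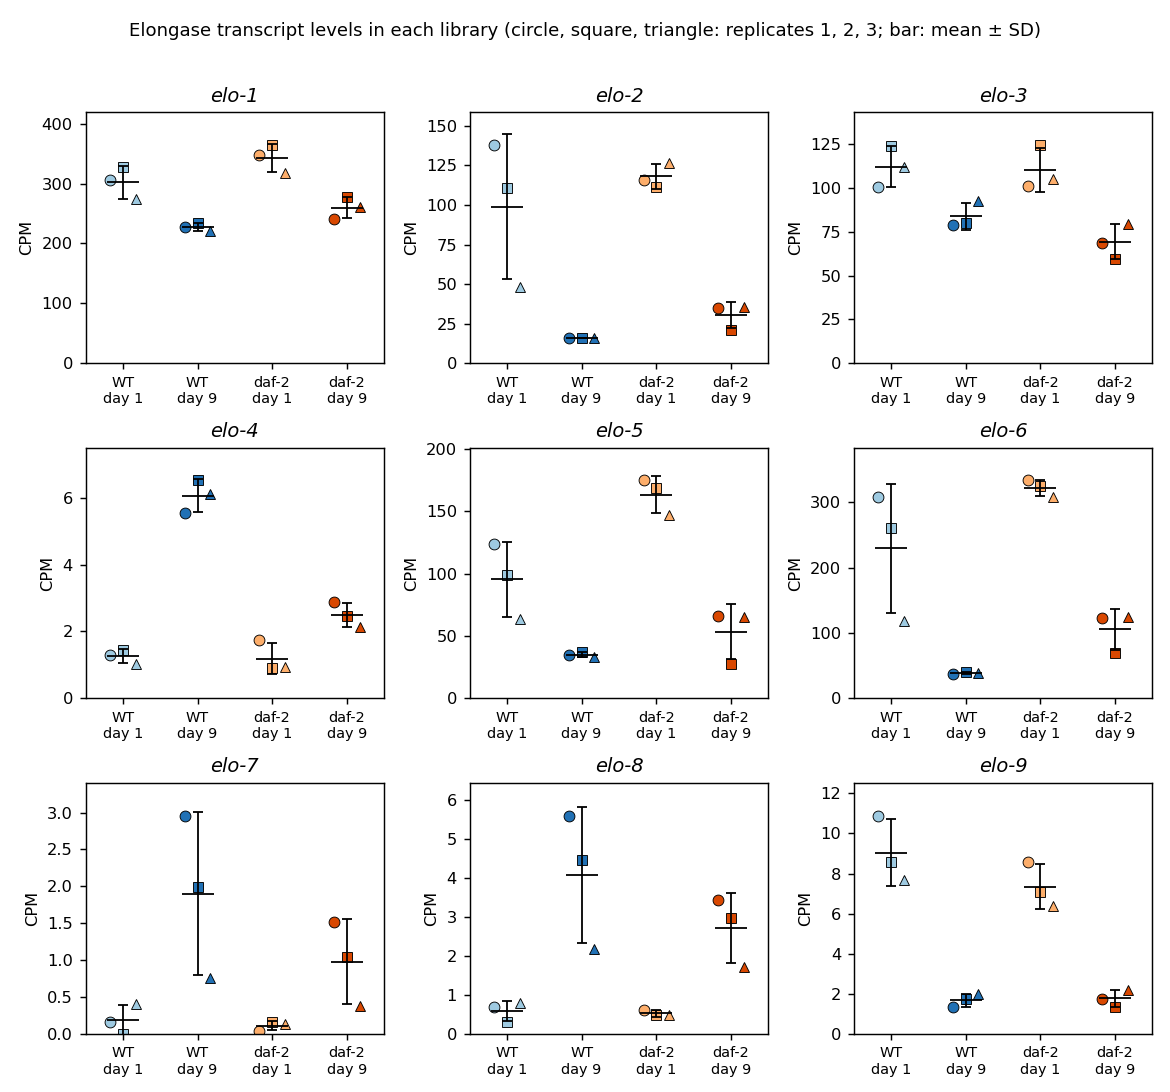
CPM of each elongase gene (linear axes from 0, a scale of its own in each panel) in the 12 libraries, by genotype and day, with the mean ± SD of 3 replicates. In both genotypes the day 9 libraries lie below all day 1 libraries for elo-1, elo-2, elo-3, elo-5, elo-6 and elo-9 and above them for elo-4, elo-7 and elo-8.

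Between day 1 and day 9 every elongase gene changed, and in the same direction in both genotypes. The 5 abundant genes and elo-9 fell, while the scarce genes elo-4, elo-7 and elo-8 rose. In wild type all 9 genes were called, 3 higher and 6 lower, where 56.8% of all tested genes were called (31.2% higher and 25.6% lower). In daf-2 all 9 were called as well, again 3 higher and 6 lower, against 43.3% of all tested genes (21.9% higher and 21.5% lower). Among the 3 higher, elo-7 passed the filter through its day 9 counts alone, so the filter itself favoured a rise of that gene. Day 1 and day 9 libraries did not overlap for any of the 9 in either genotype, but the share of all tested genes without overlap was not counted. The change was at least 2-fold for 7 of the 9 in each genotype, the exceptions being elo-1 and elo-3. The smallest of the 7, elo-5 in wild type and elo-4 in daf-2, exceeded in size 77.4% and 73.7% of all tested genes. The median change of the 9 was -0.42 in wild type and -0.67 in daf-2, beside 0.09 and 0.01 over all tested genes.

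The palmitate elongase gene elo-2 showed the largest fall among the abundant members in wild type. It had 138, 111 and 48.1 CPM in the day 1 libraries, against 15.7, 15.9 and 16.05 CPM at day 9. The day 9 libraries thus lay close together and far below even the lowest day 1 library. The change was -2.64 ± 0.32 (6.22-fold lower, adjusted p = 3.0e-05). In daf-2, elo-2 went from 116, 112 and 127 CPM to 35.05, 21.04 and 35.7 CPM, a change of -1.95 ± 0.30 (3.87-fold lower, adjusted p = 0.00033).

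Of the pair that makes branched-chain fatty acids, elo-6 fell steeply in wild type. Its levels were 309, 261 and 119.1 CPM at day 1, against 37.5, 40.1 and 39.1 CPM at day 9, a change of -2.56 ± 0.30 (5.90-fold lower, adjusted p = 2.8e-05). In daf-2 the day 1 libraries had 333, 324 and 308 CPM and those of day 9 123, 69.7 and 125 CPM (-1.60 ± 0.29, 3.04-fold lower, adjusted p = 0.00094). The old daf-2 libraries lay above all old wild-type libraries. Its partner elo-5 had 124, 98.8 and 63.9 CPM at day 1, against 34.8, 37.04 and 32.9 CPM at day 9 in wild type (-1.45 ± 0.29, adjusted p = 0.0013). In daf-2 it went from 175, 169 and 147 CPM to 66.4, 27.8 and 65.6 CPM (-1.62 ± 0.29, adjusted p = 0.00088).

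The 2 most even members were elo-1 and elo-3. The polyunsaturated fatty acid elongase gene elo-1 had 305, 328 and 273 CPM at day 1, against 228, 234 and 220 CPM at day 9 in wild type, a 1.33-fold fall (-0.41 ± 0.10, adjusted p = 0.0044). Its fall in daf-2, from 347, 364 and 317 CPM to 241, 277 and 261 CPM, was 1.32-fold (-0.40 ± 0.10, adjusted p = 0.0072). For elo-3 the wild-type libraries had 100.5, 124 and 112 CPM at day 1, against 78.7, 80.1 and 92.5 CPM at day 9 (-0.42 ± 0.13, adjusted p = 0.014). This call was lost with upper-quartile scaling (-0.25, adjusted p = 0.063) and without wild-type day 1 replicate 2 (adjusted p = 0.056), day 9 replicate 1 (0.056) or day 9 replicate 2 (0.052). In daf-2, elo-3 went from 101, 124 and 105 CPM to 68.7, 59.6 and 79.5 CPM (-0.67 ± 0.13, adjusted p = 0.0012).

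**Figure D2:**
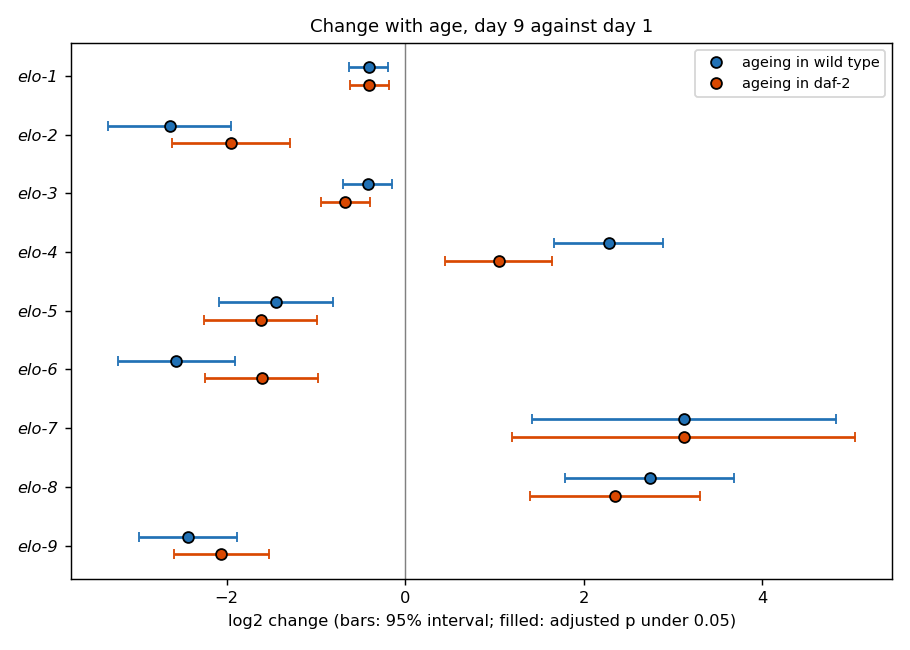
Log2 change from day 1 to day 9 for each elongase gene in wild type and daf-2, with 95% intervals and filled points for adjusted p under 0.05. All 18 points are filled; elo-4, elo-7 and elo-8 lie to the right of 0 and the other 6 genes to the left in both genotypes.

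Among the scarce genes elo-9 fell, from 10.9, 8.58 and 7.66 CPM to 1.31, 1.72 and 1.97 CPM in wild type (-2.43 ± 0.25, adjusted p = 1.1e-05) and from 8.58, 7.06 and 6.38 CPM to 1.76, 1.33 and 2.20 CPM in daf-2 (-2.06 ± 0.25, adjusted p = 5.1e-05). The values at day 9 rest on 32 to 47 reads per wild-type library and 44 to 106 per daf-2 library. The gene elo-4 rose in wild type from 1.302, 1.44 and 1.03 CPM to 5.54, 6.51 and 6.12 CPM (2.28 ± 0.28, 4.86-fold higher, adjusted p = 3.6e-05). In daf-2 it rose from 1.73, 0.895 and 0.943 CPM to 2.88, 2.47 and 2.13 CPM (1.05 ± 0.28, 2.07-fold higher, adjusted p = 0.0091).

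The 2 lowest members, elo-7 and elo-8, were near the limit of detection at day 1. For elo-7, 3, 0 and 12 reads were counted in the wild-type day 1 libraries, against 72, 52 and 18 at day 9, and in daf-2 1, 3 and 3 at day 1 and 38, 58 and 18 at day 9. A count of 0 allows up to 3 reads, for counting error only. The fitted changes, 3.13 ± 0.78 in wild type (adjusted p = 0.0049) and 3.12 ± 0.88 in daf-2 (adjusted p = 0.013), depend at such counts on the small constant added in the fit. Without wild-type day 1 replicate 3, which held most of the reads of its group, the wild-type change was 4.45. The daf-2 call was lost without daf-2 day 1 replicate 1 (2.71, adjusted p = 0.053). For elo-8 the wild-type libraries had 0.677, 0.300 and 0.786 CPM at day 1, against 5.59, 4.44 and 2.18 CPM at day 9 (2.74 ± 0.44, 6.68-fold higher, adjusted p = 0.00024). In daf-2 they had 0.619, 0.474 and 0.471 CPM at day 1, against 3.44, 2.96 and 1.700 CPM at day 9 (2.35 ± 0.44, adjusted p = 0.0011).

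At day 9 the libraries that were low in elo-7 and elo-8 were also low in sperm transcripts. The summed level of the 6 sperm genes listed (2 major sperm protein genes, 2 sperm phosphatase genes, spe-9 and spe-11) was 51.3, 48.7 and 16.6 CPM in old wild type (replicates 1, 2 and 3), against 20.3, 15.9 and 5.60 CPM in old daf-2. Within each genotype this is the same order as for elo-7 and elo-8, with replicate 3 lowest and each wild-type library above the daf-2 library of the same number. Over all tested genes, the deviations of the 2 day 9 replicates 3 from their group means correlated at 0.58. How many other genes share the order was not counted. At day 1 the sum was 8.02, 13.2 and 13.4 CPM in wild type and 2.15, 2.84 and 6.81 CPM in daf-2, and its order among libraries was not that of elo-8. With age 4 of the 6 sperm genes rose and 0 fell in wild type, and 2 rose and 0 fell in daf-2, beside 31.2% and 21.9% of all tested genes called higher. The part of sperm in the rises of elo-7 and elo-8 was not tested. With both day 9 replicates 3 left out, a choice made after the values were seen, the 4 calls remained, with changes of 3.48 and 3.52 for elo-7 and 3.03 and 2.59 for elo-8 in wild type and daf-2.

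**Figure D3:**
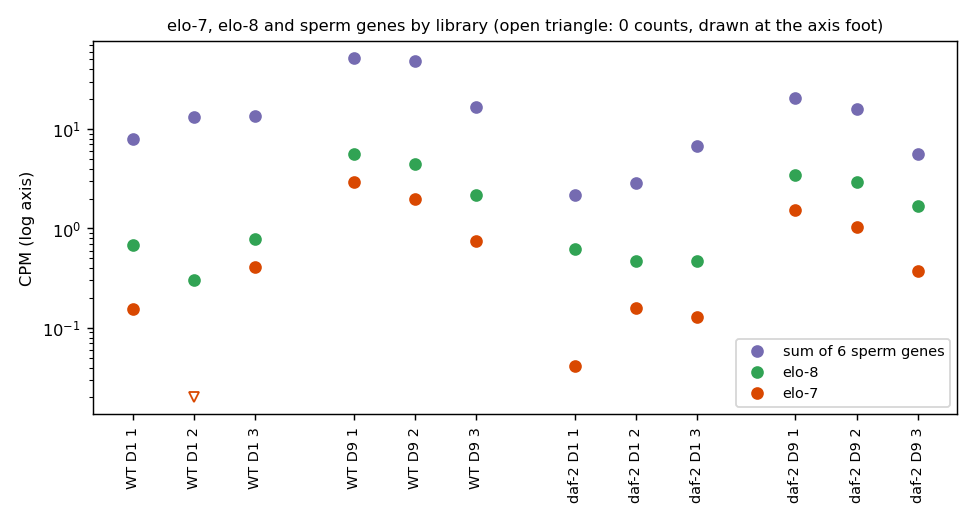
CPM on a log axis of elo-7, elo-8 and the sum of 6 sperm genes in each of the 12 libraries. At day 9 all of them are lowest in replicate 3 of each genotype, where the sperm sum is 16.6 CPM in wild type and 5.60 CPM in daf-2.

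Markers of intestine, hypodermis and body wall muscle had lower summed levels at day 9 than at day 1 in both genotypes, and those of the germ line in wild type, while in daf-2 the germ line ranges overlapped. The intestine is the main site of fat synthesis in the worm. The summed level of 6 intestinal markers was 2587 to 3190 CPM in wild type at day 1 and 990.4 to 1240.2 CPM at day 9, and in daf-2 1587 to 2588 CPM and 232 to 571 CPM. Of these 6 genes 3 fell in wild type and 5 in daf-2, and none rose, beside 25.6% and 21.5% of all tested genes called lower. For 7 hypodermal markers the sum went from 1311 to 1736 CPM at day 1 to 260 to 299.7 CPM at day 9 in wild type, and from 1005 to 1872 CPM to 233 to 285 CPM in daf-2. Most of this gap came from the single gene col-19, with means of 1257 and 108 CPM in wild type. In daf-2 the mean sum went from 1298 to 263 CPM and col-19 from 1132 to 82.5 CPM. Of the 6 hypodermal markers tested, 3 fell in wild type and 2 in daf-2, and 0 rose, beside the same shares of all tested genes. For 8 oocyte and germ line markers it was 6203 to 7725 CPM and 3777 to 4358 CPM in wild type and 3327 to 5687 CPM and 3665 to 4077 CPM in daf-2. For 6 body wall muscle markers it was 1168 to 2099 CPM at day 1 and 387 to 501 CPM at day 9 in wild type, with 1407 to 3428 CPM and 344 to 603 CPM in daf-2. The 6 neuronal markers had a higher sum at day 9, from 187 to 207 CPM at day 1 to 273 to 315 CPM in wild type and from 207 to 237 CPM to 273 to 308 CPM in daf-2. Of these, 4 rose in wild type and 2 in daf-2, and 0 fell, beside 31.2% and 21.9% of all tested genes called higher. In daf-2 their median change was 0.06, and the mean sum went from 227 to 289 CPM while snb-1 alone went from 156 to 219 CPM. No defining marker of these lists was at 0 in all libraries of a group. Their part in the falls of the elongase genes was not tested.

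The makeup of the elongase mRNA, which does not depend on how libraries are scaled to each other, held more elo-1 at day 9. The share of elo-1 in the summed elongase RPKM was 29.8% to 44.2% in the wild-type day 1 libraries, against 55.9% to 57.4% at day 9. In daf-2 it was 30.3% to 32.0% at day 1 and 43.8% to 60.3% at day 9. The share of elo-6 was 22.1% to 34.6% and 10.8% to 11.4% in wild type, and 32.7% to 33.9% and 17.4% to 25.6% in daf-2. The 3 genes that rose remained minor, with elo-4 at 1.71 ± 0.116% and elo-8 at 1.13 ± 0.481% of the sum in wild type at day 9. The summed level itself was 813 ± 203 RPKM at day 1 and 377 ± 7.69 RPKM at day 9 in wild type, and 1040.4 ± 46.5 RPKM and 499 ± 58.3 RPKM in daf-2. Of the net fall, elo-6 alone made up 47.2% in wild type and 43.1% in daf-2.

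The balance within the branched-chain pair differed between the ages in wild type. The ratio of elo-5 to elo-6, each per length, was 0.402, 0.380 and 0.539 in the wild-type day 1 libraries, against 0.934, 0.928 and 0.845 at day 9. In daf-2 it was 0.526, 0.522 and 0.478 at day 1 and 0.540, 0.400 and 0.528 at day 9. The 3 wild-type day 9 libraries thus lay above all 9 others, and in daf-2 the ages overlapped. This ratio was chosen after the values were seen and is given without a test. The elo-5 transcript shares 162 bp of exon with F41H10.3, a gene on the opposite strand, and the libraries did not mark strand. F41H10.3 had 167, 222 and 175 CPM at day 1, against 107, 90.1 and 100.4 CPM at day 9 in wild type, and its part in the elo-5 counts was not tested. No other gene shares exon sequence with elo-6. Opposite-strand genes also share exon sequence with elo-3 (gstk-2, 44 bp), elo-4 (ufc-1, 16 bp, and the non-coding C40H1.10, 104 bp) and elo-7 (F56H11.2, 64 bp), so reads there cannot be told apart by strand.

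**Figure D4:**
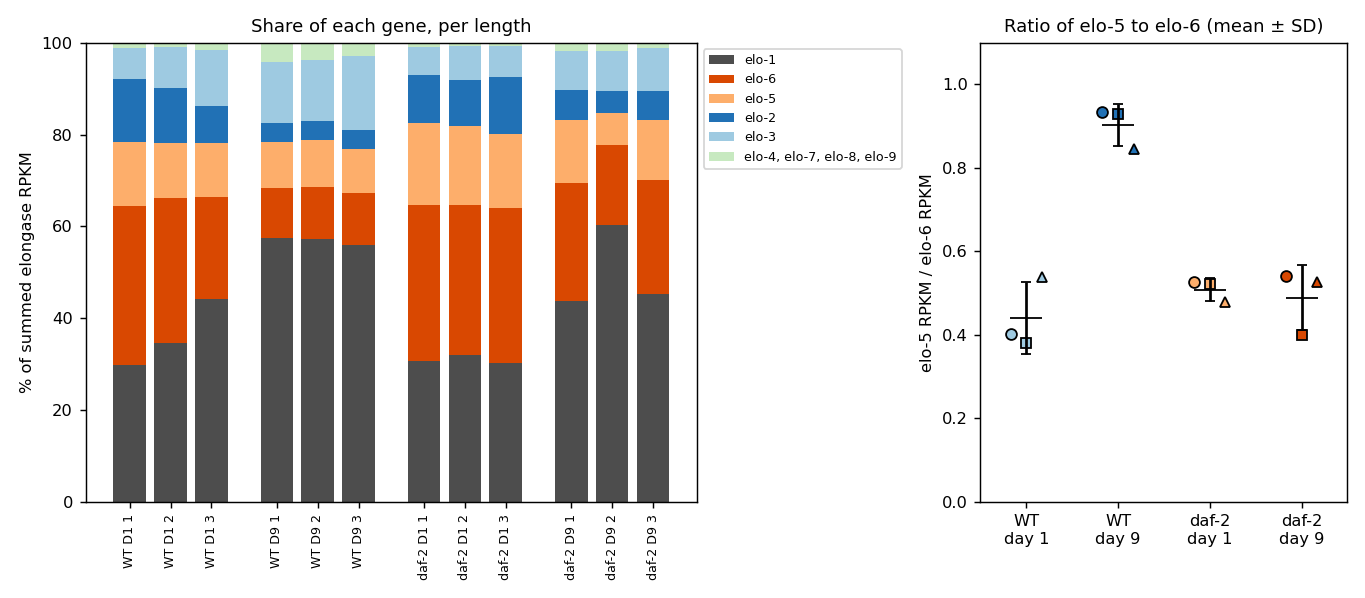
Left, share of each elongase gene in the summed elongase RPKM of each library. Right, ratio of elo-5 to elo-6 RPKM by group, with the mean ± SD of 3 replicates. The wild-type day 9 libraries, at 0.845 to 0.934, stand above the other 9, which run from 0.380 to 0.540.

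In young adults no elongase gene was called between the genotypes. At day 1 the test called 0 of 9, where 15.4% of all tested genes were called (10.3% higher and 5.06% lower in daf-2). DESeq2 also called 0 members, where it called 1738 higher and 1691 lower of 22556 genes. In the main test 1 gene, elo-5, had an unadjusted p under 0.05. That gene had 175, 169 and 147 CPM in daf-2 and 124, 98.8 and 63.9 CPM in wild type, without overlap (0.78 ± 0.29, adjusted p = 0.083). It was called without wild-type day 1 replicate 1 (1.01, adjusted p = 0.043) and without daf-2 day 9 replicate 2 (0.77, adjusted p = 0.017). The 95% interval of the difference was -0.04 to 0.40 for elo-1, -0.38 to 0.90 for elo-2, -0.30 to 0.25 for elo-3 and -0.13 to 1.11 for elo-6, so changes of 2-fold or more fell outside it for elo-1, elo-2 and elo-3 but not for elo-6.

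In old adults, 2 of the 9 genes differed between the genotypes, in opposite directions, where 10.8% of all tested genes were called (4.54% higher and 6.26% lower in daf-2). The branched-chain elongase gene elo-6 was 2.72-fold higher in daf-2, with 123, 69.7 and 125 CPM against 37.5, 40.1 and 39.1 CPM in wild type (1.45 ± 0.29, adjusted p = 0.0068). The scarce gene elo-4 was lower in daf-2, with 2.88, 2.47 and 2.13 CPM against 5.54, 6.51 and 6.12 CPM (-1.28 ± 0.26, adjusted p = 0.0066). Both calls were lost when the day 9 replicates 3 of both genotypes were left out (1.31, adjusted p = 0.060, and -1.18, adjusted p = 0.067), a fit with 2 libraries in each day 9 group. The daf-2 libraries of elo-2, at 35.05, 21.04 and 35.7 CPM, also lay above those of wild type, at 15.7, 15.9 and 16.05 CPM, without reaching a call (0.94 ± 0.30, adjusted p = 0.069). This gene was called with DESeq2 (adjusted p = 0.021), with no filter on low counts (0.036), in a fit of the day 9 libraries alone (0.022) and without daf-2 day 9 replicate 2 (0.040) or wild-type day 1 replicate 1 (0.046) or 3 (0.0054). At day 9 the deviations of same-number libraries from their group means correlated, at 0.36, 0.14 and 0.58 for replicates 1, 2 and 3. Replicates 1 and 2 also correlated across numbers between the genotypes (0.24 and 0.20), so the numbers did not pair exclusively. A fit of the day 9 libraries with that number as a block called 5 of 9, where it called 23.3% of all tested genes. The block was chosen after these correlations were seen, and the labels state no pairing. It also leaves few libraries from which to estimate the spread. Beside elo-6 (1.39, adjusted p = 0.0039) and elo-4 (-1.30, adjusted p = 0.0054) these were elo-2 (0.90, adjusted p = 0.013), elo-3 (-0.29, adjusted p = 0.047) and elo-7 (-0.96, adjusted p = 0.023). For elo-7 the daf-2 library was the lower of each same-number pair, 1.52 against 2.96 CPM, 1.05 against 1.99 CPM and 0.373 against 0.754 CPM. The same held for elo-8 in 3 of 3 pairs (-0.56, adjusted p = 0.061). Without daf-2 day 9 replicate 2, elo-5 was called too (0.92, adjusted p = 0.017, beside 0.61 and 0.22 with it). The intestinal marker sum was 232 to 571 CPM in old daf-2 and 990.4 to 1240.2 CPM in old wild type, but its members did not move together. Most of the gap came from the protease gene asp-1, with a mean of 160 CPM in old daf-2 and 813 CPM in old wild type, and asp-1 and ifb-2 were called lower in daf-2. The esterase gene ges-1 was called higher in daf-2 (0.95 ± 0.27, adjusted p = 0.041). This call was lost without any 1 wild-type library of either day, or without daf-2 day 9 replicate 3 (adjusted p = 0.051 to 0.16). The other 3 markers were not called, among them the intestinal GATA factor gene elt-2 (-0.01).

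**Figure D5:**
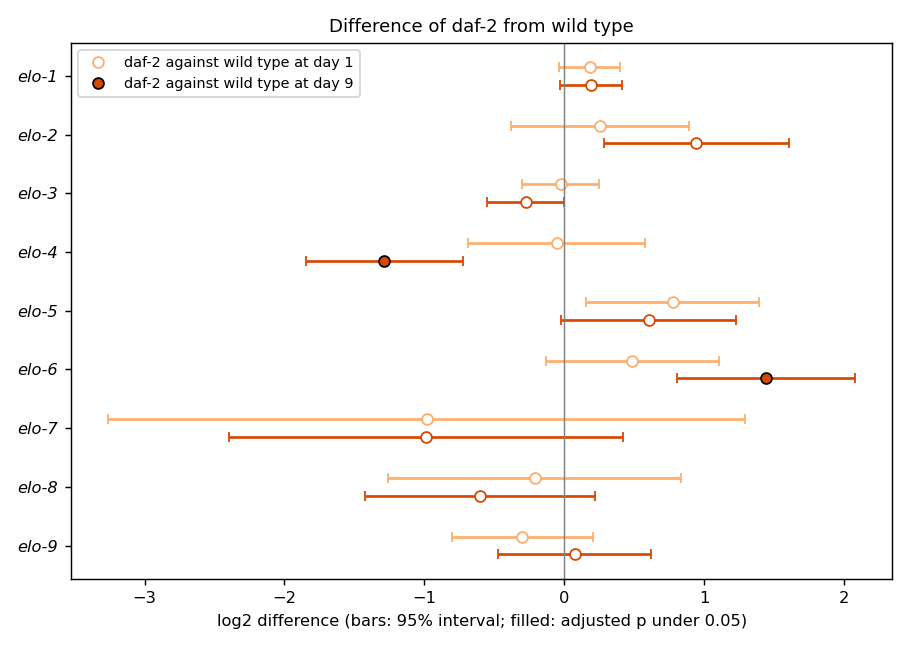
Log2 difference of daf-2 from wild type for each elongase gene at day 1 and day 9, with 95% intervals and filled points for adjusted p under 0.05. Only elo-4, at -1.28, and elo-6, at 1.45, are filled, both at day 9.

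The direct test of whether ageing differed between the genotypes, the interaction, called 0 of 9, where 5.29% of all tested genes were called (0.573% higher and 4.72% lower). Unadjusted p-values under 0.05 were found for 2 genes, elo-4 and elo-6. For elo-6 the interaction was 0.96 ± 0.40 (adjusted p = 0.18, 95% interval 0.08 to 1.84). For elo-4 it was -1.23 ± 0.39 (adjusted p = 0.084, and 0.039 with DESeq2, which called this 1 member). Over all 22556 genes DESeq2 called 451 higher and 1157 lower. For elo-1 the interaction was 0.01 ± 0.14 (95% interval -0.30 to 0.32), an interval that holds no 2-fold difference. For elo-2 it was 0.69 ± 0.42 and for elo-5 -0.17 ± 0.40.

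These comparisons leaned on 2 libraries that stood apart in elo-2, elo-5 and elo-6. Wild-type day 1 replicate 3 had 38.7%, 57.5% and 41.8% of the mean of the other 2 libraries of its group for these genes, but 86.4% for elo-1 and 99.8% for elo-3. Likewise daf-2 day 9 replicate 2 had 59.5%, 42.1% and 56.2%, but 110.3% for elo-1, while elo-3 had 80.5% and elo-9 67.5%. The intestinal marker sum of the first library, 2760 CPM, lay between those of its group, and that of the second, 232 CPM, was the lowest of its group (405 and 571 CPM in the others). The second was also lowest for hypodermis (233 against 285 and 272 CPM), body wall muscle (344 against 484 and 603 CPM) and neurons (273 against 287 and 308 CPM). The first was lowest for body wall muscle (1168 against 2099 and 1510 CPM) but not for hypodermis or neurons. The germ line sum of each lay between those of its group. Without wild-type day 1 replicate 3 the interaction was called for elo-2 (1.02, adjusted p = 0.049) and elo-6 (1.27, adjusted p = 0.026). With both libraries left out, a choice made after the values were seen, it was 1.23 for elo-2 (adjusted p = 0.0024) and 1.50 for elo-6 (adjusted p = 0.00057), and at day 9 elo-2, elo-5 and elo-6 were all called higher in daf-2 (1.16, 0.92 and 1.68). In that fit elo-5 was also called higher in daf-2 at day 1 (0.55, adjusted p = 0.018), and all 9 genes were still called with age in each genotype.

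The likeness of 2 genes was measured as the root mean square difference of their log2 CPM after each was centred on its own mean. The closest pair was elo-2 and elo-6, at 0.22, and of all named genes tested each was the other's nearest. Next were elo-1 and elo-3 (0.25), both of which varied little, with SDs over the libraries of 0.25 and 0.33, so that a small difference says little of a shared course. They were followed by elo-5 and elo-6 (0.44), elo-2 and elo-5 (0.45), elo-2 and elo-9 (0.48) and elo-7 and elo-8 (0.53). The neighbours elo-1 and elo-7 were at 1.85, and elo-2 and elo-7 were farthest apart, at 2.80. These values describe 12 libraries in 4 groups, dominated by age. Beyond the family, the nearest genes were sod-2 for elo-1 (0.07), dhs-23 for elo-2 (0.27), nuo-2 for elo-3 (0.10), ckb-2 for elo-4 (0.25), fard-1 for elo-5 (0.24), col-174 for elo-6 (0.34), acs-18 for elo-7 (0.51), irld-1 for elo-8 (0.33) and hpd-1 for elo-9 (0.22). After hpd-1, the nearest genes to elo-9 were ech-6 (0.25) and vha-6 (0.27), the latter an intestinal marker. Of the 6 intestinal markers, 3 were called lower with age in wild type and 5 in daf-2. The marker ges-1 had wild-type means of 21.1 CPM at day 1 and 24.9 CPM at day 9. The tissue in which elo-9 was expressed was not tested.

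Of the 3 genes for the enzymes that complete the elongation cycle, 3 fell with age in wild type and 2 in daf-2, by no more than 1.01 on the log2 scale, beside 25.6% and 21.5% of all tested genes called lower. The ketoacyl-CoA reductase gene let-767 had 272, 257 and 219.7 CPM at day 1, against 118, 123 and 132 CPM at day 9 in wild type (-1.01 ± 0.10, adjusted p = 9.2e-06). In daf-2 it changed by -0.80 ± 0.10 (adjusted p = 7.5e-05), and at day 9 it was higher in daf-2 than in wild type (0.42 ± 0.10, adjusted p = 0.019). The latter call was lost without wild-type day 9 replicate 1 or 2 or daf-2 day 9 replicate 3 (adjusted p = 0.075 to 0.093). The enoyl-CoA reductase gene art-1 changed by -0.54 ± 0.09 in wild type (adjusted p = 0.00026) and -0.32 ± 0.09 in daf-2 (adjusted p = 0.010). The dehydratase gene hpo-8 fell in wild type (-0.30 ± 0.10, adjusted p = 0.022) and had 125 ± 5.16 and 116 ± 13.5 CPM in daf-2 (-0.12, adjusted p = 0.36).

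Genes that supply the branched-chain elongases mostly fell too. Of 6 genes for branched-chain primers and their activation, 6 fell in wild type and 5 in daf-2, and none rose, against the same background of 25.6% and 21.5% lower. Their median change was -1.06 in wild type and -0.92 in daf-2. The subunit gene dld-1, of the dehydrogenase that breaks down branched-chain keto acids, fell from 296 to 77.5 CPM in wild type (-1.93 ± 0.14). The acyl-CoA synthetase gene acs-1, which acts on branched-chain fatty acids, fell by 3.00 on the log2 scale in daf-2, and its change with age differed between the genotypes (-1.38 ± 0.35, adjusted p = 0.042). At day 9, acs-1 was lower in daf-2 (-0.87 ± 0.25, adjusted p = 0.045), with 49.1, 21.4 and 51.1 CPM against 65.5, 83.1 and 72.7 CPM. The low daf-2 value is that of replicate 2, the library that was low in elo-2, elo-5 and elo-6, and both calls held without it. Both were lost without any 1 of the 6 wild-type libraries, or without daf-2 day 1 replicate 1 or 2 (adjusted p = 0.053 to 0.15 at day 9 and 0.063 to 0.11 for the interaction). At day 1, 3 of the 6 were lower in daf-2, beside 5.06% of all tested genes called lower. Among the 3 was the keto acid dehydrogenase gene bckd-1A (-0.76 ± 0.14, adjusted p = 0.0044).

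Desaturase genes, whose products share substrates with the elongases, did not move as a block. In wild type 2 of the 7 genes fat-1 to fat-7 rose and 2 fell, and in daf-2 1 rose and 5 fell, beside 56.8% and 43.3% of all tested genes called in either direction. The stearoyl-CoA desaturase gene fat-7 fell in both (-3.03 ± 0.21 and -5.58 ± 0.26), the palmitoyl-CoA desaturase gene fat-5 rose in wild type (1.09 ± 0.15), and fat-3 rose in both (0.76 ± 0.13 and 0.61 ± 0.13). The interaction was called for 4 of the 7, all lower, with fat-7 at -2.55 ± 0.32 (adjusted p = 0.0012), and genotype for 5 at day 1 (3 higher, 2 lower) and 6 at day 9 (2 higher, 4 lower), beside 5.29%, 15.4% and 10.8% of all tested genes. For de novo synthesis, 1 of 5 genes fell with age in each genotype, acly-1 of ATP citrate lyase (-0.85 ± 0.12 and -0.81 ± 0.12), and 0 rose. The fatty acid synthase gene fasn-1 was lower in daf-2 at day 9 (-0.84 ± 0.22, adjusted p = 0.031), the only 1 of the 5 called there, and this call was lost without daf-2 day 9 replicate 1 or 2 or wild-type day 9 replicate 1 or 3 (adjusted p = 0.061 to 0.12).

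Of 13 genes of sphingolipid synthesis, the pathway that uses branched-chain products, 2 rose and 3 fell in wild type and 3 rose and 5 fell in daf-2, beside 56.8% and 43.3% of all tested genes called. The smallest p belonged to sptl-2, a serine palmitoyltransferase gene (-2.90 ± 0.21 and -2.64 ± 0.20), which at day 9 was higher in daf-2 (0.89 ± 0.21, adjusted p = 0.015, and 0.051 to 0.064 without wild-type day 9 replicate 1 or 2 or daf-2 day 9 replicate 1). Of 14 regulators of lipid genes, 3 rose and 6 fell in wild type with age, and 1 rose and 1 fell in daf-2, against the same shares. Among them hlh-30, the TFEB homologue, rose in wild type (0.94 ± 0.13) and nhr-66, a nuclear hormone receptor gene, fell (-0.73 ± 0.14). The SREBP homologue sbp-1 was higher in daf-2 at day 1 (0.77 ± 0.16, adjusted p = 0.0076). The interaction was called for 1 of the 14, hlh-30 (-0.83 ± 0.19, adjusted p = 0.024), a call lost without daf-2 day 1 replicate 1 or 2, daf-2 day 9 replicate 1 or 2, replicate 3 of young wild type, or replicate 1 or 3 of old wild type (adjusted p = 0.051 to 0.068), and for 0 of the 13 sphingolipid genes.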

How the data were processed

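Per the labels, total RNA of whole worms was made into unstranded TruSeq libraries. STAR 2.7.0e, RSEM 1.3.1, DESeq2 1.22.2 and the build WBcel235 (ce11) appear, without their roles, in the submitters' processing notes. The deposited values are raw whole-number counts per gene and library. No source used here says whether they were rounded from estimates. Of 46778 identifiers, 46603 were found in the Ensembl release 115 annotation of WBcel235, which gave names, coordinates and exon lengths.

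The main analysis used edgeR 4.0.16 (R 4.3.3): quasi-likelihood test, TMM scaling, filterByExpr (minimum count 10), 1 fit of 4 group means over 12 libraries, and 5 comparisons. The SE is the log2 change divided by the square root of F, and is not given for the interaction of elo-7, whose log2 value is near 0. The procedure was tested on simulated counts. Replicates were not copies of each other (chi-square per degree of freedom 12.2 to 109.4). Every same-number pair had a correlation of deviations over 0.1 only between the day 9 groups (3 of 3, from 0.14 to 0.58). This was found in the data, and the labels do not say what a number marks. A day 9 fit with the number as a block was therefore added. The libraries come from separate biological repeats per the labels.

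Members and lists were chosen with earlier results of these data known. Named genes were all members, the 3 genes completing the elongation cycle, per list and comparison the called gene with the smallest p in each direction, and the 3 genes nearest each member. Of the marker lists, 6 of 7 intestinal symbols matched. Alternatives were RLE and upper-quartile scaling, DESeq2 1.42.0, other filters (none; 100 counts in 3 libraries), fits of the compared libraries alone, a replicate block, and leaving out libraries.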

Additional observations from a re-analysis of the deposited data

How the results depend on the processing

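The 9 calls with age in each genotype fell to no fewer than 8 under any setting, with the stricter filter leaving elo-7 untested. Over 939 repeats of single-gene results 876 kept direction and side of the threshold, 7 lost a call, 20 gained one and 36 changed sign, none of them called in the first place. Counts of calls that moved were those for genotype at day 1 (0, range 0 to 1 with libraries left out), genotype at day 9 (2, range 0 to 4) and the interaction (0, range 0 to 2, and 1 with DESeq2). With libraries left out, 15786 to 15939 genes were tested in all. Of these, 879 to 2044 were called higher and 239 to 1156 lower at day 1. At day 9 it was 359 to 810 and 622 to 1178, and for the interaction 27 to 233 and 391 to 1097. DESeq2 called the interaction higher for 451 and lower for 1157 of 22556 genes. With wild-type day 1 replicate 3 and daf-2 day 9 replicate 2 left out together the counts for members were 1, 4 and 2. Over all 15795 genes this fit called 1196 higher and 563 lower, 572 and 626, and 81 and 391. Without both day 9 replicates 3, genotype at day 9 gave 0 members, beside 359 higher and 690 lower of 15840 genes. The causes were not tested. Upper-quartile scaling moved the median change of all genes with age from 0.09 to 0.26 in wild type and from 0.01 to 0.14 in daf-2, and the split of calls from 4848 higher and 3970 lower to 5849 and 2967, and from 3395 and 3330 to 4351 and 2602. Among members it ended only the elo-3 call in wild type.

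Sign changes concerned differences that were not called, of at most 0.26 in size except elo-7 at day 1 (-0.98, on few reads). The interaction of elo-7 was 0.0399 with RLE scaling, 0.00884 with DESeq2, 0.0238 with no filter and 0.14 with the replicate block, and -1.40 to 0.46 with libraries left out. That of elo-1 was -0.0314 with upper-quartile scaling and -0.0271 with the stricter filter, and -0.0520 to 0.0779 with libraries left out, and that of elo-5 -0.40 to 0.37. At day 1 the genotype difference of elo-3 was 0.000931 with the stricter filter, and with libraries left out it was -0.12 to 0.0519 for elo-3, -0.0739 to 0.58 for elo-2, -0.43 to 0.11 for elo-4, -1.45 to 0.34 for elo-7 and -0.49 to 0.0788 for elo-8. At day 9 that of elo-9 was -0.13 to 0.25. Leaving out libraries gave 8 to 9 calls with age in each genotype.

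Over all groups 5 of 18 same-number pairs of libraries had a correlation of deviations over 0.1 (-0.31 to 0.58): 3 of 3 between the day 9 groups, 2 of 3 between the day 1 groups and 0 between days. The replicate block over 12 libraries gave 9, 9, 0, 2 and 0 calls for the 5 comparisons, as without it. Over all 15523 genes it called, in the same order, 4870 higher and 4003 lower, 3451 and 3382, 1655 and 1018, 788 and 983, and 84 and 658. The day 9 numbers did not pair exclusively. Wild-type replicate 2 had a higher correlation with daf-2 replicate 1 (0.24) than with daf-2 replicate 2 (0.14). In the day 9 libraries alone the replicate block gave 5 calls, and the same libraries without it 3. Over all 14989 genes, 1420 were called higher and 2077 lower with the block, and 1150 and 1215 without it. For the interaction, a fit of only the libraries compared is the first fit itself. The order of members by level per length was the same with the longest transcript, with 0 ranks changed. Depth limits elo-7, with 15 reads in all in wild type and 7 in daf-2 at day 1.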
